A study of Mus musculus with 15 samples.

Results

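Mitochondrial ribosomal protein genes were followed in mouse brain by QuantSeq, in which only the 3′ end of each poly(A) RNA is sequenced. The members were all rows of the deposited count table whose symbol begins with Mrpl or Mrps and a number, without Mrpl40 and without pseudogene names. This gave 77 genes of 30386, 48 named for the large and 29 for the small subunit. The rule used the symbols alone and no measured value, though it was chosen with earlier results of these data known. All 77 were found in the GENCODE M21 annotation, on 17 chromosomes.

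The 15 libraries form 3 groups of 5. Het_B12 are mice heterozygous for a mutation of the transcription factor gene Tbx1 that received vitamin B12 in phosphate-buffered saline by intraperitoneal injection at 20 mg/kg. Het_PBS are mice with the same Tbx1+/- genotype that received the saline alone, and WT_PBS are wild-type mice that received the saline alone. Injections began at 4 weeks of age and were given 2 times a week for 4 weeks in every group. Vitamin B12 in wild types was not analysed here, so whether the vitamin acts alike in wild types and heterozygotes cannot be seen. The labels name neither the mutant allele nor the strain or sex, and describe the tissue in places as the whole brain and in places as a hemisphere.

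The mitochondrial ribosome translates the few mRNAs encoded by mitochondrial DNA, which specify membrane subunits of the respiratory chain and of ATP synthase. Its RNAs come from mitochondrial DNA, whereas all of its proteins are encoded in the nucleus, made in the cytosol and imported. Brain depends heavily on oxidative phosphorylation, and in humans inherited defects of several of these proteins cause combined respiratory chain deficiency, often with encephalopathy. Vitamin B12 is the cofactor of methionine synthase in the cytosol and of methylmalonyl-CoA mutase in mitochondria. The study's title poses the question of metabolic changes in the Tbx1+/- brain and their response to this vitamin.

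Total counts per library ran from 1683258 to 2746122, and a detection floor of 3 counts equalled 1.09 to 1.78 CPM of the raw totals. Levels given below are in CPM with library sizes scaled by TMM factors. The 77 genes held 100641 counts together. Tbx1 itself had 1 read in the 5 Het_B12 libraries, 3 in the 5 Het_PBS libraries and 3 in the 5 WT_PBS libraries, which is too few to check the genotype labels. All 9 neuronal marker genes were detected, with a summed level of 6819 to 7471 CPM in Het_B12, 6868 to 7510 CPM in Het_PBS and 6940 to 8081 CPM in WT_PBS. The column names of Het_B12 1 and Het_PBS 5 carry the same number, taken here as an animal number. The chi-square between these libraries, divided by its degrees of freedom, was 10.3, against 8.96 to 10.7 between Het_PBS 5 and the other Het_B12 libraries. As labelled, the pair received different injections over the same weeks, so 1 mouse could not have given both. These counts cannot settle whether a label is wrong. Both were kept, and results without both are given where they ended a call. Separate mice are not stated outright for the 15 libraries, so that p-values measure the spread between libraries, which may be technical in part.

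Promoters of these genes are shown for the 6 members that passed the test in at least 1 comparison below. RefSeq promoter windows on GRCm38.p6 ran from 250 bases before to 50 bases after the start of each gene, and 68 of the 77 members matched. Capitals mark NRF1 matches to GCGCANGCG, ETS matches to CCGGAAG and YY1 matches to AAGATGGCG on either strand. NRF1, the ETS factor GABP (also called NRF-2) and YY1 are known regulators of nuclear genes for mitochondrial proteins. The windows were chr11:120484387-120484686 on the plus strand for Mrpl12, chr3:87919294-87919593 on the plus strand for Mrpl24, chr7:105811038-105811337 on the minus strand for Mrpl17, chr9:98601630-98601929 on the minus strand for Mrps22, chr19:4962056-4962355 on the plus strand for Mrpl11 and chr3:95871465-95871764 on the minus strand for Mrps21, each printed 5′ to 3′ in the direction of the gene.
Mrpl12: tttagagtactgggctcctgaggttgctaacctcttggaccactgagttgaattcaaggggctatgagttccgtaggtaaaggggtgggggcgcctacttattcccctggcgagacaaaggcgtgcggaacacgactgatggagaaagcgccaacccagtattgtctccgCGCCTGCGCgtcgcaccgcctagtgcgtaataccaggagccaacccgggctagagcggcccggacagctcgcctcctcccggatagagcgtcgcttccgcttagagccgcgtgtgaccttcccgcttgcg
Mrpl24: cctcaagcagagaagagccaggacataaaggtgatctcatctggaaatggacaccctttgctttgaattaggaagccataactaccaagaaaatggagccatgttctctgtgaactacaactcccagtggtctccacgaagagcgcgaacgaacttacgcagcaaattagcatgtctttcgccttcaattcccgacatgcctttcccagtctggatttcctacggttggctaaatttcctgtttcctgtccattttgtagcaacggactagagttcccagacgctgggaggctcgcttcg
Mrpl17: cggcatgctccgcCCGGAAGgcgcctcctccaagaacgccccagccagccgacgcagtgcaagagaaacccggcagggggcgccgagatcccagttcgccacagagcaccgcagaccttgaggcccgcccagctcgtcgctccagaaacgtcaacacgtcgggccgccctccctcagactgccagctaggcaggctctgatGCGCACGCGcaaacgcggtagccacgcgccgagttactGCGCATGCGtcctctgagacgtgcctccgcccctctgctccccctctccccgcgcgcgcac
Mrps22: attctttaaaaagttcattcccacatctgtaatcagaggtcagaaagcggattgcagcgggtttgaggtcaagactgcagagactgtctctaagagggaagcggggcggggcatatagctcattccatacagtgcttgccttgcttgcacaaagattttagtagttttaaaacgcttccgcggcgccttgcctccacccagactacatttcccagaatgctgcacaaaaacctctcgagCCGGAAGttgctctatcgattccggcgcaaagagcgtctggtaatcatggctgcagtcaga
Mrpl11: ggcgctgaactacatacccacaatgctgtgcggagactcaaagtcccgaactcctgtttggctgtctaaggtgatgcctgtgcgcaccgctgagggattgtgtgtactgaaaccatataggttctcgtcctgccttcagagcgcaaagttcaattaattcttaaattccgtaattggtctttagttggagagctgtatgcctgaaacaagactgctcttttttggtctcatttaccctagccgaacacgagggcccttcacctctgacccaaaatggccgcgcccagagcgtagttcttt
Mrps21: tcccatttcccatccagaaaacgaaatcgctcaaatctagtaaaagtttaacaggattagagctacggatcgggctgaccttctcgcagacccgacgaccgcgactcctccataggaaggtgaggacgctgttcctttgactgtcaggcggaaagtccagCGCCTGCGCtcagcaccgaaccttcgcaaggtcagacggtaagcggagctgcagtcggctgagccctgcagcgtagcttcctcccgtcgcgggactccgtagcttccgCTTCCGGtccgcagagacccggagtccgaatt

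The Mrpl17 window held 2 NRF1 matches, 1 of them to the exact form GCGCATGCG, and 1 ETS match. Mrpl12 had a single NRF1 match, Mrps22 a single ETS match, and Mrps21 had 1 of each. The windows of Mrpl24 and Mrpl11 held none of these letters, which says nothing of whether the factors bind there.

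The ETS motif was found in at least 1 window of 38.2% of the 68 matched members, against 9.93% of the 27025 genes of the RefSeq table. Genes with several windows were counted once. The NRF1 motif was found in 23.5% of members against 7.03% of all genes, and its exact form GCGCATGCG, which is contained in the looser motif, in 10.3% against 1.95%. YY1 matches stood in 11.8% of members and in 1.64% of all genes. The NF-Y motif CCAAT was as common in members (39.7%) as in all genes (41.1%), the SP1 motif GGGCGG was found in 48.5% against 38.2%, and the TATA box TATAAA in 7.35% against 15.7%. The E-box CACGTG (7.35% against 8.09%) and the CRE motif TGACGTCA (2.94% against 2.03%) differed little. Such matches describe the letters of the windows, and no binding was measured. The genes of the RefSeq table were not matched to the members in base composition or expression. Whether the differences are particular to mitoribosomal genes was therefore not tested. Among the members with YY1 matches were Mrpl35, Mrpl36, Mrpl37, Mrpl42, Mrps11, Mrps18a, Mrps24 and Mrps27. Mrpl32 held 3 exact NRF1 matches, some of which overlap on opposite strands and so are not separate sites.

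**Figure D1:**
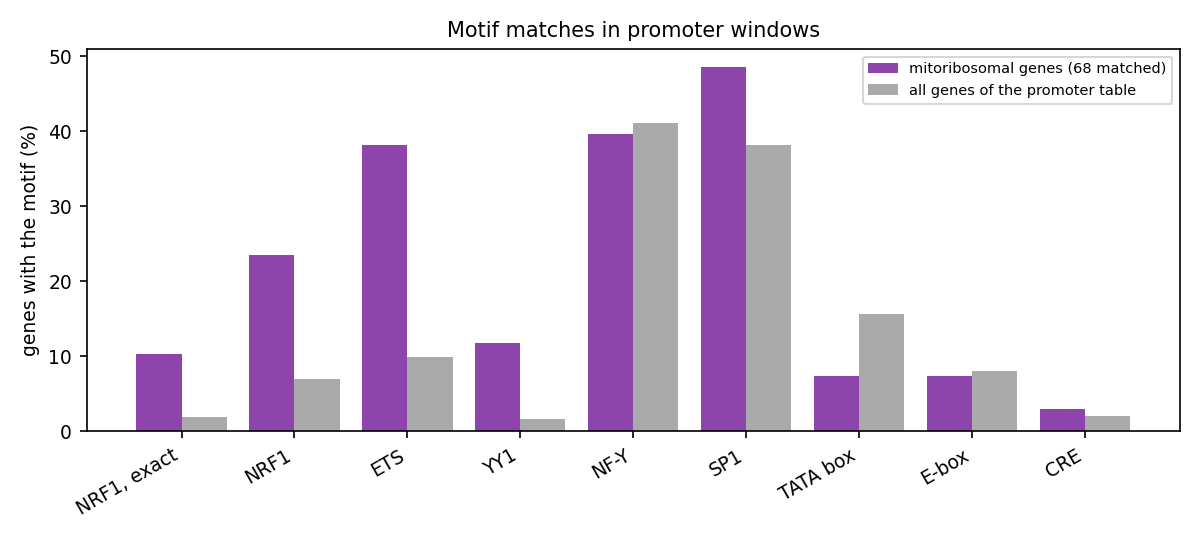
Bars give the percentage of genes with each motif on either strand of a promoter window (300 bases around the gene start), for the 68 matched mitoribosomal genes and for all 27025 genes of the RefSeq table. ETS, NRF1 and YY1 matches were more frequent among the members, whereas NF-Y and E-box matches were about as frequent as in all genes.

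Some members share a start region with another gene. For 18 of the 77, a protein-coding gene on the opposite strand began within 1000 bases upstream of the member's main transcript, without overlapping it. The share over all genes was not computed, so this is not shown to be particular to the members. Mrpl46 starts 30 bases from Mrps11, so that a large-subunit and a small-subunit gene are paired head to head. Mrps12 starts 222 bases from Sars2, the mitochondrial seryl-tRNA synthetase gene, and Mrpl49 starts 59 bases from Fau, which encodes a cytosolic ribosomal protein.

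A 3′ read counts a transcript whatever its length, so levels in CPM are set side by side here without dividing by length. Mrpl12 was the most abundant member at 121.6 CPM over all libraries, followed by Mrpl18 at 86.1 CPM, Mrpl48 at 85.8 CPM and the small-subunit gene Mrps5 at 84.5 CPM. The lowest of the 73 members tested were Mrpl23 at 3.88 CPM, Mrps21 at 8.47 CPM and Mrpl9 at 8.64 CPM. The median member level was 38.8 CPM in the large and 30.2 CPM in the small subunit. The median biological coefficient of variation was 0.17 for the members and 0.20 for all genes tested.

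The other 4 members had too few reads for a test. Mrpl53 had 0 reads in every library, and its last 300 bases lie wholly within Gm42688 on the same strand, which had 9 reads. Mrps18b had 27 reads, and its last 300 bases lie wholly opposite Gm16279 with 20 reads. Mrps28 had 19 reads in Het_B12, 6 in Het_PBS and 5 in WT_PBS, and Mrps36 had 10, 5 and 8 reads in the same groups. Mrps36 is now known as a component of the 2-oxoglutarate dehydrogenase complex rather than of the ribosome. Mrps30 and Mrps18a are known to sit in the large subunit despite their names, and were counted here by symbol with the small subunit.

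The comparison of Het_B12 with Het_PBS asks what the vitamin changed in heterozygous brains. With TMM scaling, mitoribosomal genes were slightly lower on the whole in Het_B12. Of the 73 tested 4 passed, all of them lower, namely Mrpl12, Mrpl24, Mrpl17 and Mrps22. The members' median was near 0 with raw library totals, but it lay below the median of all genes under both scalings. A gene passed where its Benjamini-Hochberg adjusted p, over all 11718 genes that had enough counts for a test, was under 0.05 in an edgeR quasi-likelihood fit of all 15 libraries. The median log2 fold change of the 73 was -0.13, against 0.01 over all 11718 genes tested. It lay below 0 for 54 of the 73 members and for 48.6% of all genes. The share of all genes that passed in either direction was 7.26%, with 3.79% lower and 3.47% higher, so a count of 4 in 73 is near the background. With raw library totals, an alternative chosen after seeing the data, the median of all genes moved to 0.14 and that of the members to 0.01, with 36 of 73 below 0. Of all genes 220 were then lower and 935 higher, against 444 lower and 407 higher with TMM scaling, and only Mrpl12 and Mrpl24 passed among the members. Values below are relative to the TMM scaling. In bulk tissue, fewer cells of a type and less RNA per cell cannot be told apart.

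The summed level of all 77 members was 2597, 2614, 2742, 2595 and 2704 CPM in Het_B12 libraries 1 to 5, against 2855, 3061, 3025, 3027 and 3113 CPM in Het_PBS. WT_PBS libraries held 2933, 3028, 2756, 2762 and 3170 CPM. On this scale every Het_B12 library lay below every Het_PBS and every WT_PBS library, and the groups given saline overlapped each other. The means were 2650 ± 67.9 CPM for Het_B12, 3016 ± 97.1 CPM for Het_PBS and 2930 ± 178 CPM for WT_PBS (SD, n = 5 each). The separation rested on the TMM factors. Per raw total the sums were 2739, 2826, 2965, 2739 and 2841 CPM in Het_B12 libraries 1 to 5, 2799 to 3113 CPM in Het_PBS and 2689 to 3075 CPM in WT_PBS. The 3 groups then overlapped, with means of 2822 ± 92.9 CPM for Het_B12, 2936 ± 117 CPM for Het_PBS and 2827 ± 146 CPM for WT_PBS. No test was made of a sum over the members.

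**Figure D2:**
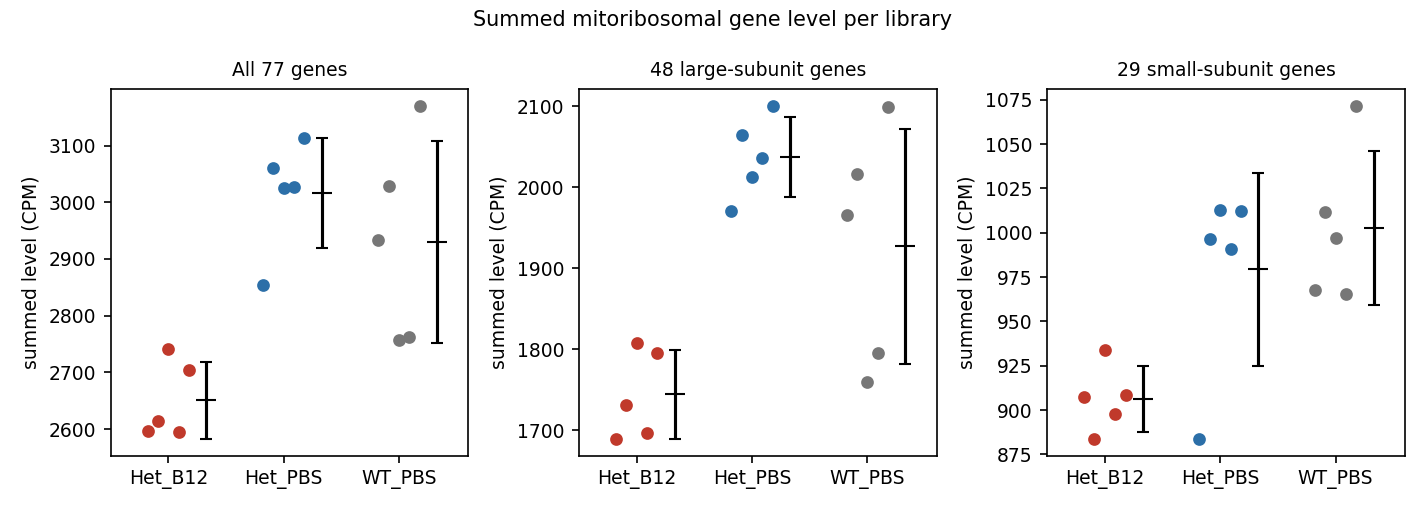
Points show the summed level, in CPM with TMM scaling, of all 77 members, of the 48 large-subunit genes and of the 29 small-subunit genes in each library, with the mean and SD of each group of 5 beside them; the axes do not start at 0. On this scale Het_B12 libraries lie below all others in the sum over all members, whereas with raw totals they span 2739 to 2965 CPM and overlap both saline groups; Het_PBS 1 lies among them in the small-subunit sum.

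The subunits are given apart here, by symbol. The 48 large-subunit genes summed to 1690 to 1808 CPM in Het_B12, 1971 to 2101 CPM in Het_PBS and 1759 to 2099 CPM in WT_PBS, so that Het_B12 stood apart from Het_PBS but overlapped WT_PBS. Per raw total the large-subunit sums of Het_B12, 1782 to 1955 CPM, overlapped those of Het_PBS, 1933 to 2101 CPM. The 29 small-subunit genes summed to 884 to 934 CPM in Het_B12, 884 to 1013 CPM in Het_PBS and 966 to 1072 CPM in WT_PBS. The median log2 fold change against Het_PBS was -0.16 over the 47 large-subunit genes tested, with 37 below 0, and -0.07 over the 26 small-subunit genes, with 17 below 0. The ratio of the large-subunit to the small-subunit sum was 1.86 to 1.98 in Het_B12, 1.99 to 2.23 in Het_PBS and 1.76 to 2.03 in WT_PBS.

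Mrpl12 encodes the stalk protein bL12m, which is known to recruit translation factors to the ribosome and to bind the mitochondrial RNA polymerase. The gene lies at chr11:120484613-120489065 on the plus strand (GRCm38) and has 5 exons. Its level was 74.1, 87.6, 93.1, 99.5 and 107.8 CPM in Het_B12 libraries 1 to 5, against 136.2, 149.9, 141.5, 119.8 and 141.4 CPM in Het_PBS. WT_PBS libraries had 117.1, 156.5, 123.1, 113.5 and 162.8 CPM. The highest Het_B12 library was below the lowest library of either saline group. Mrpl12 averaged 92.4 ± 12.7 CPM in Het_B12 and 138 ± 11.2 CPM in Het_PBS (SD, n = 5 each), a log2 fold change of -0.57 ± 0.13 (SE), or 0.67 times the level (edgeR quasi-likelihood test, adjusted p = 0.00297). This call held in all 15 fits that left out a library and in the 14 other alternative fits, with an adjusted p of 0.0299 or less.

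Mrpl11 and Mrpl10 encode the other proteins at the base of the same stalk. Mrpl11 averaged 44.0 ± 7.40 CPM in Het_B12 and 57.0 ± 5.03 CPM in Het_PBS, a log2 fold change of -0.37 ± 0.14 that did not pass (edgeR adjusted p = 0.110). Mrpl10 averaged 21.7 ± 4.63 CPM in Het_B12 and 22.4 ± 6.27 CPM in Het_PBS, a log2 fold change of -0.04 ± 0.21 (SD, n = 5 each; edgeR adjusted p = 0.948). Whether the stalk genes differed from each other in their response was not tested.

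Mrpl24 encodes uL24m of the large subunit, at chr3:87919506-87923672 on the plus strand. Its level was 45.6, 31.0, 33.7, 33.6 and 32.9 CPM in Het_B12 libraries 1 to 5, against 49.8, 53.8, 52.7, 57.0 and 54.7 CPM in Het_PBS. WT_PBS libraries had 49.8, 41.4, 55.2, 45.6 and 55.2 CPM. Het_B12 1 stood above the other 4 treated libraries, and still below every Het_PBS library. The log2 fold change was -0.61 ± 0.15 (edgeR adjusted p = 0.00816). The last 300 bases of Mrpl24 lie wholly opposite Rrnad1, whose 706 reads compare with 1597 for Mrpl24, so the value is uncertain without a stated strand setting. Rrnad1 had a log2 fold change of 0.51 ± 0.28 in the same comparison (edgeR adjusted p = 0.288). The Mrpl24 call was lost with an offset for transcript length (adjusted p = 0.0557) and held in the other 13 alternative fits besides those that left out a single library.

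Mrpl17 encodes bL17m, a large-subunit protein, at chr7:105803206-105811099 on the minus strand. It had 41.1, 31.3, 46.2, 45.8 and 46.8 CPM in Het_B12 libraries 1 to 5, against 69.3, 51.4, 63.0, 57.5 and 57.0 CPM in Het_PBS. WT_PBS libraries had 55.5, 54.1, 45.3, 48.1 and 57.3 CPM. All Het_B12 libraries were below all Het_PBS libraries, and 3 of them lay within the range of WT_PBS. The log2 fold change was -0.50 ± 0.15 (edgeR adjusted p = 0.0288). Leaving out Het_PBS 1, Het_PBS 3, Het_PBS 4, Het_B12 1 or Het_B12 2 ended this call, with adjusted p of 0.0857, 0.0658, 0.0516, 0.0630 and 0.100 in that order. It was also lost with raw library totals (0.102) and without both Het_B12 1 and Het_PBS 5 (0.0752).

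Mrps22 encodes a small-subunit protein without a bacterial counterpart, and mutations of the human gene cause combined respiratory chain deficiency. The mouse gene lies at chr9:98588730-98601660 on the minus strand. Its level was 10.4, 28.5, 15.2, 14.2 and 23.6 CPM in Het_B12 libraries 1 to 5, against 32.6, 29.7, 30.9, 28.3 and 36.8 CPM in Het_PBS. WT_PBS libraries had 32.2, 27.0, 17.4, 24.5 and 45.7 CPM. Of the 5 Het_B12 libraries, 4 were below every Het_PBS library, and Het_B12 2 was just above the lowest. The log2 fold change was -0.77 ± 0.23 (edgeR adjusted p = 0.0363). The call was lost without Het_PBS 1, 3, 4 or 5 (adjusted p of 0.0523 to 0.0712), without Het_B12 1, 3 or 4 (0.0880 to 0.117) and after thinning all libraries to the smallest total (0.0695). It was also lost with raw library totals (0.0788) and without both Het_B12 1 and Het_PBS 5 (0.191).

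**Figure D3:**
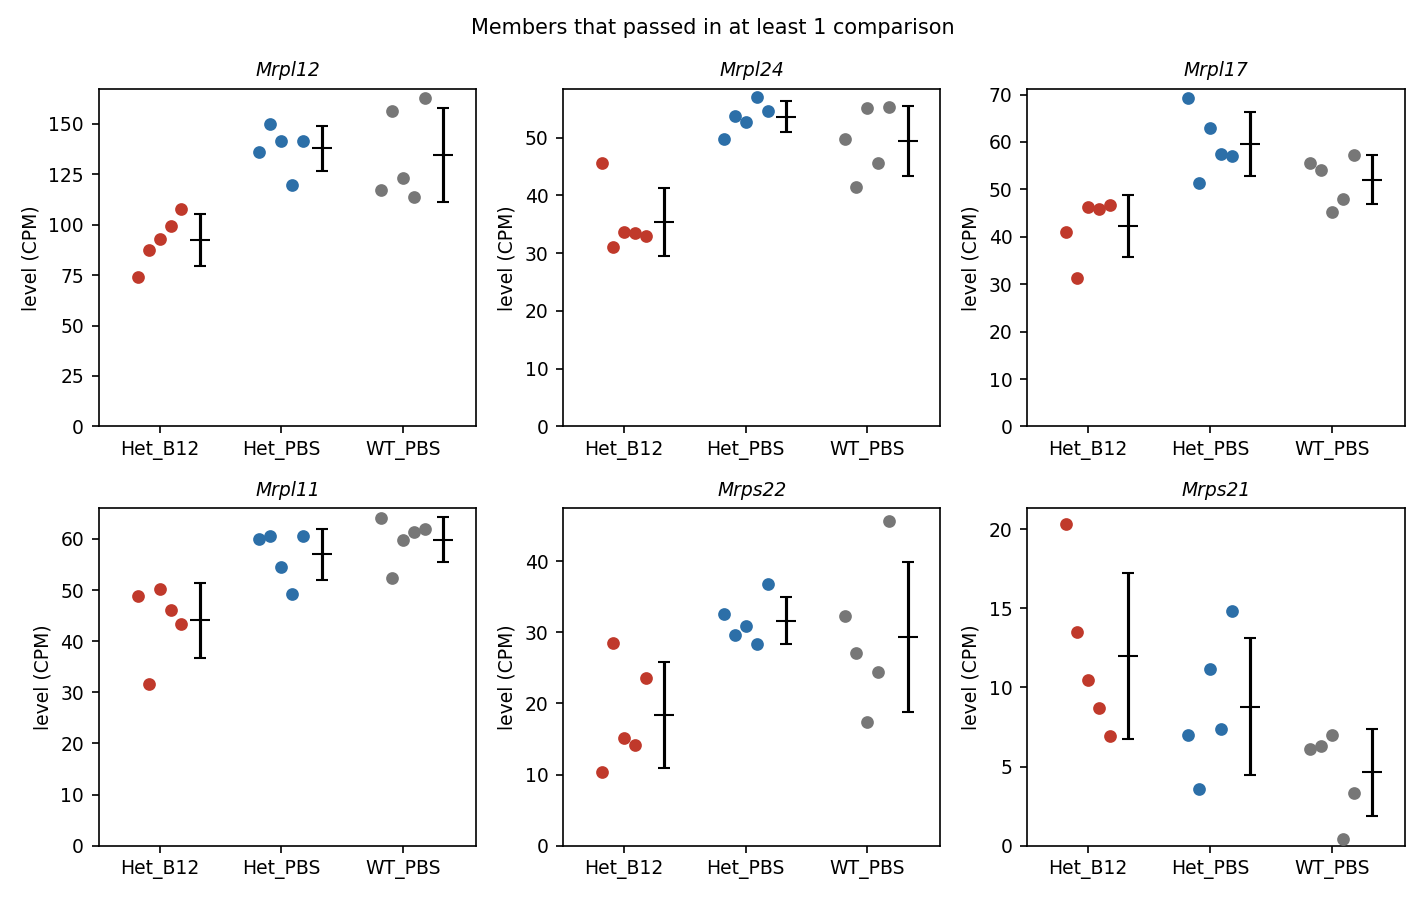
Each panel shows the level in CPM of a gene that passed in at least 1 comparison, by library, with the mean and SD of each group of 5; all axes start at 0. Het_B12 libraries lie below all Het_PBS libraries for Mrpl12, Mrpl24 and Mrpl17, overlap at 28.5 CPM for Mrps22, and reach 20.3 CPM for Mrps21.

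A further group of large-subunit genes showed the same direction without passing. Mrpl50 averaged 12.4 ± 5.23 CPM in Het_B12 and 21.2 ± 3.63 CPM in Het_PBS, with a log2 fold change of -0.75 ± 0.25 (edgeR adjusted p = 0.0646). Mrpl54 averaged 40.0 ± 10.4 CPM in Het_B12 and 55.5 ± 5.12 CPM in Het_PBS, with a log2 fold change of -0.47 ± 0.16 (adjusted p = 0.0714; SD, n = 5 each). Without overlap between the groups, 6 members were lower in Het_B12, namely Mrpl12, Mrpl17, Mrpl24, Mrpl36, Mrpl47 and Mrpl50, and 0 were higher. Over all genes tested, 4.07% were lower without overlap and 3.75% higher. An unadjusted p under 0.05 was reached by 19 members, all lower and 16 of them of the large subunit, where 21.7% of all genes reached it, 1272 higher and 1268 lower.

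Among small-subunit genes the smallest p-values after Mrps22 belonged to Mrps18c and Mrps16. Mrps18c, a mammalian counterpart of bacterial bS18, averaged 23.1 ± 3.38 CPM in Het_B12 and 34.9 ± 11.8 CPM in Het_PBS, with a log2 fold change of -0.58 ± 0.22 (edgeR adjusted p = 0.110). Mrps16, whose human counterpart is mutated in a fatal neonatal respiratory chain disorder, averaged 30.7 ± 7.88 CPM in Het_B12 and 40.7 ± 6.37 CPM in Het_PBS, with a log2 fold change of -0.41 ± 0.18 (adjusted p = 0.185; SD, n = 5 each). The paralog Mrps18a had the same level in both groups, 36.5 ± 5.6 CPM in Het_B12 and 36.4 ± 5.75 CPM in Het_PBS.

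At the other end, the highest positive log2 fold changes belonged to low-count genes. Mrps21, the counterpart of bacterial bS21, had 0.46 ± 0.39 (edgeR adjusted p = 0.545), and Mrpl44, which has an RNase III-like fold and whose human gene is mutated in a cardiomyopathy, had 0.46 ± 0.32 (adjusted p = 0.446). Mrps35, Mrps7 and Mrps9 had 0.24 ± 0.21, 0.24 ± 0.18 and 0.19 ± 0.20. None of these passed. Several well-measured members lay close to 0. Mrps5 averaged 82.4 ± 7.07 CPM in Het_B12 and 82.5 ± 16.1 CPM in Het_PBS, and Mrpl58, a peptidyl-tRNA hydrolase built into the large subunit that releases stalled ribosomes, averaged 52.5 ± 9.59 CPM in Het_B12 and 53.4 ± 12.9 CPM in Het_PBS (SD, n = 5 each). The 95% interval of the fold change lay within 1.5-fold in either direction for 35 members and within 2-fold for 65 of the 73.

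**Figure D4:**
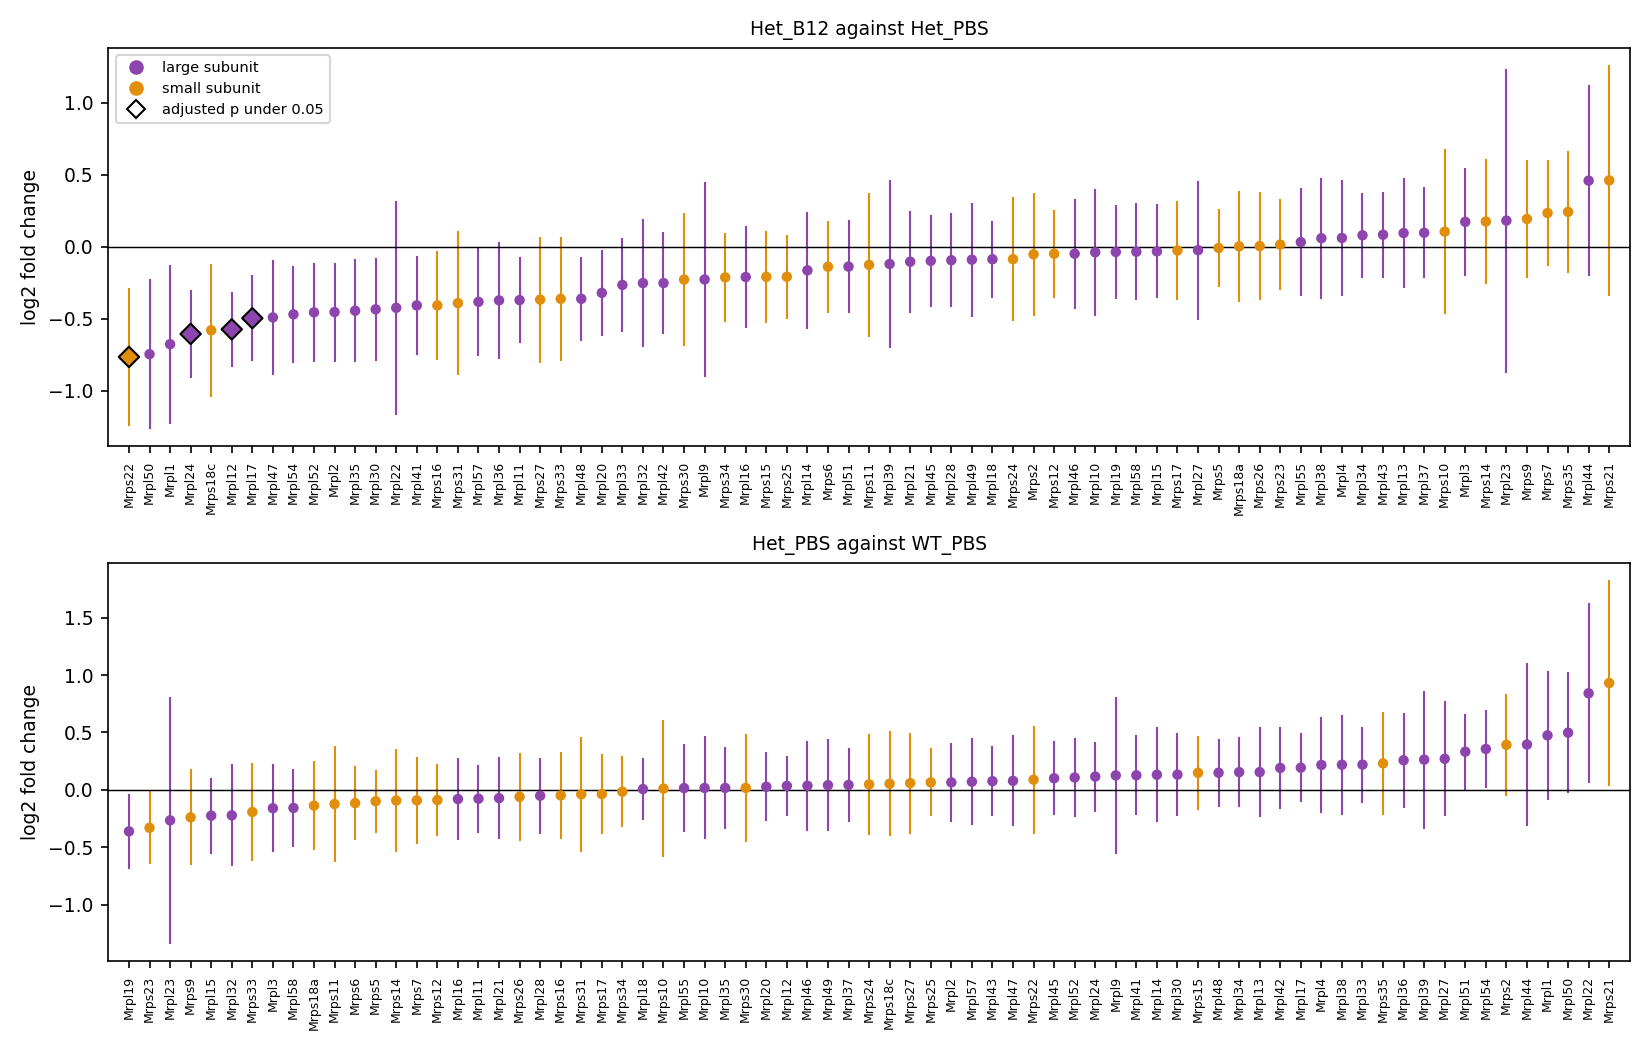
Points give the log2 fold change of each of the 73 tested members with its 95% interval, in order of size, for Het_B12 against Het_PBS (top) and Het_PBS against WT_PBS (bottom); colours mark the subunit and diamonds mark an adjusted p under 0.05. With TMM scaling 54 members lie below 0 in the upper panel, against 36 with raw totals, and 4 passed. The median of all genes was 0.01 with TMM scaling and 0.14 with raw totals in that comparison. In the lower panel 48 lie above 0 and 0 passed, and the 2 panels share the Het_PBS libraries.

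Reads from neighbouring genes could touch some of these values. The last 300 bases of 9 members overlap another gene, 8 of them on the opposite strand. Besides Mrpl24 these include Mrps25, opposite Nr2c2 with 6864 reads against its own 2567, and Mrps34, opposite Mapk8ip3 with 4091 reads against 1756. Mrps25 had a log2 fold change of -0.21 ± 0.14 and Mrps34 of -0.21 ± 0.15 in Het_B12 against Het_PBS, both without passing (edgeR adjusted p of 0.419 and 0.441), and no source used here gives the strand setting of the counting.

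Values of the genes that start beside members are given for those that passed in Het_B12 against Het_PBS. Other tested neighbours did not pass, among them Mitd1, Ncapd2, Mrps11 and Ptcd2. Over all genes tested 7.26% passed. Fau had a log2 fold change of -0.51 ± 0.11 (edgeR adjusted p = 0.00316) where its neighbour Mrpl49 had -0.09. Psma2, a proteasome subunit gene, had -0.43 ± 0.13 (adjusted p = 0.0345) beside Mrpl32 at -0.25. Klc4, a kinesin light chain gene, had 0.86 ± 0.22 (adjusted p = 0.0122) beside Mrpl2 at -0.45, and Sars2 had 1.40 ± 0.43 (adjusted p = 0.0388) beside Mrps12 at -0.05.

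Other parts of the mitochondrial translation system were read from lists of related genes. Of 5 mitoribosomal proteins without an Mrp symbol, Chchd1, a small-subunit protein, fell to 55.7 ± 10.2 CPM in Het_B12, against 89.9 ± 8.83 CPM in Het_PBS, a log2 fold change of -0.69 ± 0.16 (SD, n = 5 each; edgeR adjusted p = 0.00475). The other 4 did not pass, with log2 fold changes of -0.30 for Gadd45gip1 of the large subunit and, of the small subunit, -0.16 for Aurkaip1, -0.15 for Dap3 and 0.10 for Ptcd3. Of 22 assembly factors, 0 passed, and their median was 0.03. The smallest p belonged to the RNA helicase gene Dhx30, at 0.46 ± 0.16 (adjusted p = 0.0686). Of 13 translation factors, 0 passed, with a median of 0.20 and the smallest p for the translation GTPase gene Guf1, at 0.73 ± 0.24 (adjusted p = 0.0546).

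Mitochondrial aminoacyl-tRNA synthetases charge the tRNAs used by this ribosome. Of 16 tested, 14 had a positive log2 fold change and the median was 0.35, but only Sars2 passed. Sars2 averaged 8.31 ± 3.13 CPM in Het_B12 and 3.13 ± 1.58 CPM in Het_PBS (SD, n = 5 each). Vars2 had 0.73 ± 0.24 (edgeR adjusted p = 0.0599). Of 6 genes of mitochondrial transcription and DNA maintenance 0 passed, with a median of 0.10 and the smallest p for the DNA polymerase gene Polg, at 0.58 ± 0.21 (adjusted p = 0.0922).

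Of 10 tested protein genes of mitochondrial DNA, which the ribosome translates, 5 were lower and 0 higher, with a median log2 fold change of -0.48. For example, mt-Co1 averaged 1980 ± 89.5 CPM in Het_B12 and 3245 ± 526 CPM in Het_PBS (SD, n = 5 each), a log2 fold change of -0.71 ± 0.11 (edgeR adjusted p = 5.33e-05). Of 74 nuclear respiratory chain genes, 18 were lower and 1 higher, with a median of -0.26. Of 80 cytosolic ribosomal protein genes, 44 were lower and 0 higher, with a median of -0.45, against 4 of 73 and -0.13 for the mitoribosomal genes. Against WT_PBS, 1 of 10 mitochondrially encoded genes was lower in Het_B12 and 0 higher (median -0.19). Respiratory chain genes had 15 lower and 1 higher there (-0.08), cytosolic ribosomal genes 23 and 2 (-0.25), and 1 of 13 translation factors was higher. Mitochondrially encoded genes summed to 71670 to 87350 CPM in Het_B12, 79700 to 120500 CPM in Het_PBS and 64300 to 102900 CPM in WT_PBS. Cytosolic ribosomal protein genes have near-identical copies elsewhere in the genome, so their single counts are uncertain. No test was made between the lists, and they were chosen with earlier results of these data known.

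**Figure D5:**
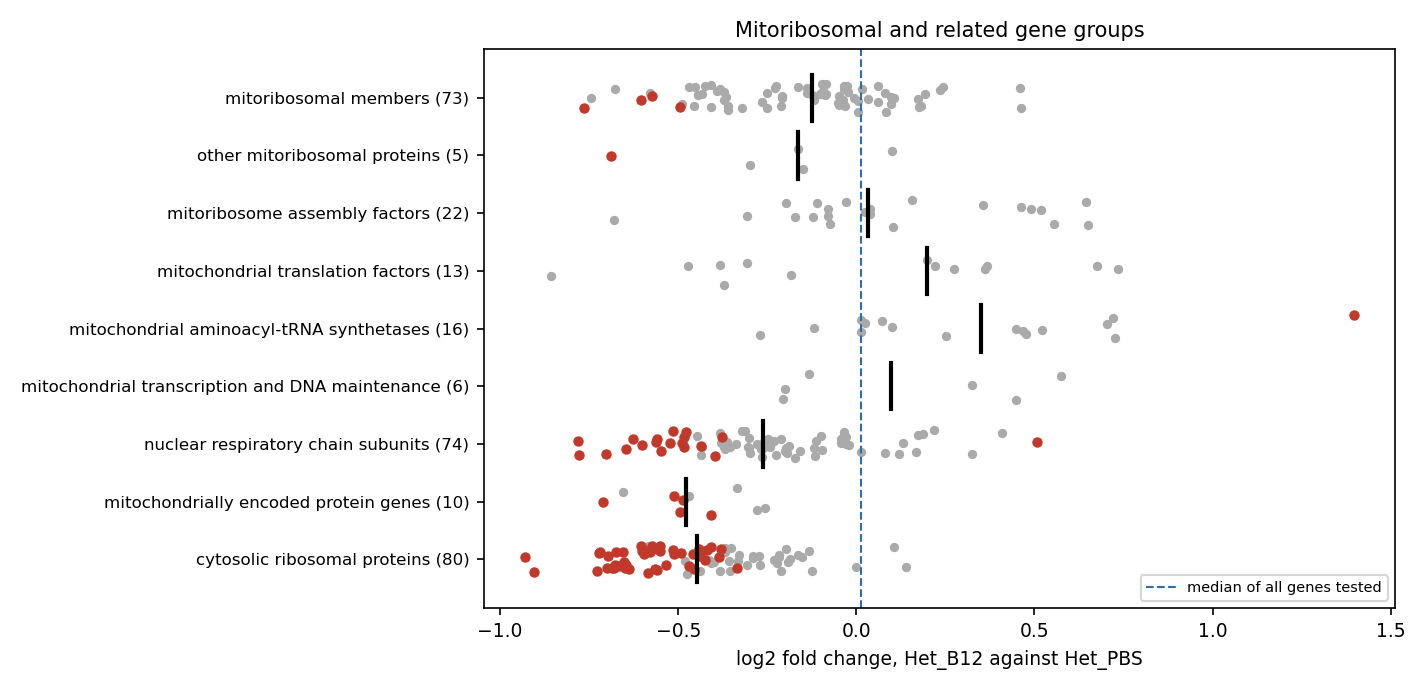
Each point is a gene's log2 fold change in Het_B12 against Het_PBS, by list, with the number tested in brackets; red points had an adjusted p under 0.05, black bars mark list medians and the dashed line marks the median of all genes tested. With TMM scaling the median of the mitoribosomal members was -0.13 (0.01 with raw totals, where all genes had 0.14), against -0.45 for cytosolic ribosomal proteins and 0.35 for mitochondrial aminoacyl-tRNA synthetases.

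Other features of the libraries also differed between the groups. All genes in the quintile of shortest transcripts had a median log2 fold change of -0.15 in Het_B12 against Het_PBS, and those in the quintile of longest transcripts 0.12. Of the 73 members 36 belonged to the shortest quintile, where their median was -0.13. From the next quintile up to the longest, the members' medians were -0.12 (17 members), -0.24 (10), -0.03 (7) and -0.21 (3), against -0.04, 0.04, 0.05 and 0.12 for all genes. Reads of Gm42418, a gene that overlaps ribosomal RNA, made up 3.31 to 6.28% of counts in Het_B12, 6.47 to 10.3% in Het_PBS and 10.6 to 14.9% in WT_PBS. The part of transcript length and of ribosomal RNA in the members' values was not tested beyond the alternative fits: the members' median was -0.08 with an offset for transcript length, with 45 of 73 below 0 and an all-gene median of -0.02, and -0.13 with Gm42418 and the mitochondrially encoded genes left out, against 0.01 for all genes.

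Marker lists of cell types also differed between Het_B12 and Het_PBS. Of the genes tested, 7 of 8 astrocyte markers, 5 of 8 microglial markers, 3 of 4 meningeal, 5 of 5 erythroid and 3 of 3 leukocyte markers were lower in Het_B12. Of 6 endothelial markers 5 were higher, and of 9 neuronal markers 1 was higher and 0 lower. Of 6 oligodendrocyte markers 1 was lower, and 0 of 4 choroid plexus markers passed. Against WT_PBS, 6 of 8 astrocyte, 4 of 8 microglial, 3 of 4 meningeal and 2 of 3 leukocyte markers were lower in Het_B12. There 5 of 6 endothelial markers were higher, and 0 of 5 erythroid markers passed. Summed erythroid markers stood at 496 to 973 CPM in Het_B12, 773.5 to 4960 CPM in Het_PBS and 483 to 1289 CPM in WT_PBS. Summed astrocyte markers stood at 3008 to 3793 CPM in Het_B12, 4687 to 5613 CPM in Het_PBS and 3914 to 5685 CPM in WT_PBS, and summed endothelial markers at 146 to 207 CPM in Het_B12, 51.5 to 89.7 CPM in Het_PBS and 50.7 to 84.6 CPM in WT_PBS. No marker gene in these lists was at 0 over a whole group. Their part in the members' values was not tested.

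The comparison of Het_PBS with WT_PBS asks what 1 mutant copy of Tbx1 changes under saline. Of the 73 members tested, 0 passed in either direction, and over all 11718 genes 0% passed as well. Altogether 6 members had an unadjusted p under 0.05, 4 of them higher and 2 lower in Het_PBS, where 7.50% of all genes had one. The median log2 fold change was 0.05, against -0.01 for all genes, with 48 of 73 above 0. It was 0.10 over the large subunit, with 37 of 47 above 0, and -0.04 over the small subunit, with 11 of 26 above 0. DESeq2 and limma-voom also called 0 members.

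Mrpl50, a large-subunit protein gene, was the only member whose groups did not overlap, where 0.393% of all genes were higher and 0.444% lower without overlap. It had 16.7, 21.4, 19.7, 21.3 and 26.7 CPM in Het_PBS libraries 1 to 5, against 16.3, 16.1, 11.6, 14.5 and 15.8 CPM in WT_PBS. Every Het_PBS library was above every WT_PBS library, though Het_PBS 1 by a narrow margin, and the log2 fold change of 0.50 ± 0.26 did not pass (edgeR adjusted p = 0.667). Het_B12 libraries had 6.33, 16.7, 15.2, 7.11 and 16.6 CPM, the highest of them lying just below Het_PBS 1.

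The smallest adjusted p of any member was 0.609, for Mrpl19. This large-subunit gene averaged 40.4 ± 7.55 CPM in Het_PBS and 51.9 ± 9.82 CPM in WT_PBS, a log2 fold change of -0.36 ± 0.16. Mrps23 averaged 47.7 ± 9.46 CPM in Het_PBS and 60.3 ± 7.29 CPM in WT_PBS, at -0.33 ± 0.15 (edgeR adjusted p = 0.640). Mrps21 had the highest positive value, at 0.93 ± 0.44 (adjusted p = 0.640), followed by Mrpl22 at 0.84 ± 0.38 (adjusted p = 0.634). Mrps2, a small-subunit gene mutated in a human mitochondrial disorder with deafness, averaged 24.3 ± 5.68 CPM in Het_PBS, against 18.4 ± 4.52 CPM in WT_PBS (SD, n = 5 each). The 95% interval lay within 1.5-fold in either direction for 50 members and within 2-fold for 67 of the 73, so for 67 members a difference of more than 2-fold lay outside the interval.

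Lists related to the members likewise had 0 genes that passed in Het_PBS against WT_PBS. Their medians were 0.30 for the mitochondrially encoded genes, 0.20 for cytosolic ribosomal proteins, 0.11 for nuclear respiratory chain genes and -0.13 for aminoacyl-tRNA synthetases. The small shift of the members above 0 was not stable. With both WT_PBS 3 and Het_PBS 5 left out, the median of the members was -0.03 and 39 of 73 lay below 0. It was 0.02 with the transcript length offset, with 35 below 0, and also 0.02 without WT_PBS 3 alone, with 33 below 0, or without WT_PBS 4 alone, with 32 below 0. WT_PBS 3 had the fewest counts of its group, at 1707033, and Het_PBS 5 the fewest of all.

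The comparison of Het_B12 with WT_PBS shares the Het_B12 libraries with the first comparison and the WT_PBS libraries with the second, so its values are not independent of either. Mrpl12, Mrpl24 and Mrpl11 were lower and Mrps21 was higher in Het_B12, out of 73 members. Over all genes 7.33% passed, 4.11% lower and 3.22% higher, or 482 and 377 genes, against 204 lower and 955 higher with raw library totals. The median log2 fold change of the members was -0.11, against 0.01 for all genes, with 53 of 73 below 0; with raw totals it was 0.02, against 0.15 for all genes. It was -0.11 over the large and -0.14 over the small subunit. Without overlap, 3 members were lower in Het_B12 (Mrpl12, Mrpl11 and Mrpl19) and 0 higher, where 2.95% and 2.44% of all genes were so.

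Mrpl12 had a log2 fold change of -0.54 ± 0.13 against WT_PBS (edgeR adjusted p = 0.00621), and passed in all 15 fits that left out a library and in the 14 other alternative fits. Mrpl24 had -0.49 ± 0.15 (adjusted p = 0.0369), and Het_B12 1 lay above WT_PBS 2 and WT_PBS 4. The Mrpl24 call was lost without WT_PBS 1, 3 or 5 or Het_B12 2, 3, 4 or 5, with adjusted p of 0.0552 to 0.112, and in 5 of 14 other alternative fits.

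Mrpl11 encodes uL11m at the base of the stalk and lies at chr19:4962147-4966999 on the plus strand. It had 48.8, 31.7, 50.3, 46.2 and 43.3 CPM in Het_B12 libraries 1 to 5, against 64.1, 52.3, 59.8, 61.3 and 61.9 CPM in WT_PBS. Het_PBS libraries had 60.0, 60.5, 54.5, 49.2 and 60.6 CPM. All Het_B12 libraries were below all WT_PBS libraries, with Het_B12 2 lowest. The log2 fold change was -0.45 ± 0.14 (edgeR adjusted p = 0.0479). This call was close to the threshold and was lost in 11 of 15 fits that left out a library, with adjusted p of 0.0529 to 0.169; it held without WT_PBS 2, WT_PBS 3, Het_PBS 5 or Het_B12 3. It was also lost in 7 of 14 other alternative fits, among them raw library totals (0.177) and the fit without both Het_B12 1 and Het_PBS 5 (0.0533).

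Mrps21 was the only member that passed as higher, and is short and weakly counted, with 156 reads in Het_B12, 93 in Het_PBS and 47 in WT_PBS. The gene lies at chr3:95862634-95871519 on the minus strand and has 3 exons. Its level was 20.3, 13.5, 10.5, 8.68 and 6.93 CPM in Het_B12 libraries 1 to 5, against 6.12, 6.33, 6.97, 0.414 and 3.32 CPM in WT_PBS. Het_PBS libraries had 6.98, 3.56, 11.2, 7.39 and 14.9 CPM. Of the Het_B12 libraries, 4 were above every WT_PBS library and Het_B12 5 lay just inside their range, while WT_PBS 4 had a single read. The log2 fold change was 1.39 ± 0.42 (edgeR adjusted p = 0.0375). The call was lost without WT_PBS 1, 4 or 5 or Het_B12 1, 2 or 3, with adjusted p of 0.0533 to 0.148, and the value without WT_PBS 4 was 1.08. It was also lost after thinning (0.0539) and without both Het_B12 1 and Het_PBS 5 (0.129).

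Other members came near the threshold against WT_PBS without passing. Mrps22 had -0.68 ± 0.23 (edgeR adjusted p = 0.0693), Mrps33 -0.55 ± 0.21 (adjusted p = 0.101) and Mrpl44 0.86 ± 0.33 (adjusted p = 0.119). Mrpl44 averaged 15.9 ± 8.19 CPM in Het_B12 and 8.69 ± 2.25 CPM in WT_PBS (SD, n = 5 each), and its treated libraries were split, with 22.1 and 27.1 CPM in Het_B12 1 and 2 and 8.68 to 10.8 CPM in the other 3. Mrpl17, which passed against Het_PBS, had -0.30 ± 0.15 against WT_PBS (adjusted p = 0.222).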

How the data were processed

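Per the labels' protocols, the 15 libraries of mouse brain RNA are QuantSeq 3′ libraries. The deposited table holds raw counts, and the submitters' processing notes name STAR, HTSeq, edgeR and the build mm10. No source used here gives their versions, the annotation or the strand setting. Groups and replicate numbers came from the sample titles, and 0 columns were left unmapped. Of 30386 identifiers, 99.6% matched GENCODE M21 (GRCm38), which gave coordinates; promoters came from RefSeq.

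Counts were analysed in R 4.3.3. filterByExpr kept 11718 genes, TMM factors scaled them, and edgeR 4.0.16 fitted 1 mean per group to all libraries without covariates (12 residual degrees of freedom, biological coefficient of variation 0.18), tested by quasi-likelihood with Benjamini-Hochberg adjustment over all genes. Standard errors are the log2 fold change over the square root of F, and 95% intervals use t on prior and residual degrees of freedom. The procedure was also run on simulated counts with the fitted spread and no general shift in composition, which does not test the scaling. Totals of 1683258 to 2746122 counts limit precision for low genes; floors of 3 counts cover counting error only. Alternatives were DESeq2 1.42.0 (size factors and Wald test), upper quartile factors, limma-voom (limma 3.58.1), no filter or a mean count of at least 50, a fit of just the groups in question, the replicate number as a block, each library left out, WT_PBS 3 and Het_PBS 5 left out, a transcript length offset, Gm42418 and mitochondrially encoded genes left out, and thinning to the smallest total. Raw library totals, and Het_B12 1 and Het_PBS 5 both left out, were added as alternatives chosen after seeing the data. Named genes were those that passed, those of smallest p per subunit and direction, the highest and lowest in level, untested members and members with known roles; for related lists, passing genes or the smallest p. Members and lists were chosen with earlier results of these data known.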

Additional observations from a re-analysis of the deposited data

Results flagged for a closer look

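Of 126 sets of 5 libraries (level of each named member, and sums, in each group), 15 held a library far from the other 4. Far means a gap of more than 0.71 of the set's range, for which chance gives about 1 in 20 in independent sets. Sums contain the members' own values and many members were named for a small p here, so no excess over that rate was tested. In Het_B12, library 1 was high for Mrpl24 (45.6 CPM, others at most 33.7 CPM) and low for Mrpl15 (30.7 CPM, others at least 36.3 CPM). Library 2 of that group was high for Mrpl48 (100 CPM, others at most 71.5 CPM) and for Mrps14 (37.0 CPM, others at most 25.3 CPM), and library 5 was high for Mrpl58 (69.3 CPM, others at most 51.3 CPM). In Het_PBS, library 1 was low for Mrpl18 (71.1 CPM, others at least 90.3 CPM), for Mrps27 (13.9 CPM, others at least 25.9 CPM) and for the summed small-subunit genes (884.0 CPM, others at least 990.6 CPM). Library 2 was high for Mrpl19 (53.8 CPM, others at most 38 CPM), library 4 for Mrpl9 (13.5 CPM, others at most 8.91 CPM) and library 5 for Mrpl44 (23.2 CPM, others at most 11.6 CPM). In WT_PBS, library 3 was high for Mrps23 (73.2 CPM, others at most 58.4 CPM) and low for Mrps25 (49.9 CPM, others at least 76.0 CPM), and library 5 was high for Mrpl10 (27.4 CPM, others at most 21.2 CPM) and Mrpl19 (68.9 CPM, others at most 50.6 CPM).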

How the results depend on the processing

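For Het_B12 against Het_PBS, alternatives other than those added later and those leaving out a single library gave 3 to 6 members lower, 0 higher. Of all genes, 390 to 609 were lower in those fits. With a library left out, 2 to 6 members were lower, and 317 to 581 of all genes. The members' median log2 fold change then ran from -0.18 to -0.10. For Het_PBS against WT_PBS 0 members passed under any alternative; the median ran from 0.02 to 0.10 with a library left out and was -0.032 without both WT_PBS 3 and Het_PBS 5. Leaving out a library gave 272 to 662 of all genes lower and 177 to 608 higher for Het_B12 against WT_PBS. Among the members 1 to 6 were lower and 0 to 1 higher in that comparison, with a median of -0.15 to -0.10. There, 1 was lower with only the groups compared (428 of 11266 of all genes), 7 without both WT_PBS 3 and Het_PBS 5 (745 of 11810) and 1 after thinning (388 of 10691), where the fit reported has 3 and 482 of 11718. After thinning 0 were higher, and 2 with the transcript length offset. With a mean count of at least 50, 0 were higher because that filter removed Mrps21. Of the alternatives chosen after seeing the data, raw library totals left 2 lower against Het_PBS, with a median of 0.0063 where all genes had 0.14, and 1 lower and 1 higher against WT_PBS, with a median of 0.024 where all genes had 0.15. Without both Het_B12 1 and Het_PBS 5, whose column names share a number, 2 were lower against Het_PBS (254 of 11820 of all genes), and 2 lower and 0 higher against WT_PBS (370 of 11820). The cause of the other shifts was not tested, and no named member that passed changed sign under any alternative. Replicate numbers did not pair the libraries (same-numbered correlations of -0.09 to 0.11). With the replicate block 4 members were lower against Het_PBS, and 440 of all genes. Against WT_PBS 2 members were lower and 1 higher, and of all genes 446 and 354. There Mrpl11 no longer passed (edgeR adjusted p = 0.0562). Depth limits low members most, such as Mrps21 with a single read in WT_PBS 4.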
